A study of Drosophila melanogaster with 12 samples.

Results

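In wing imaginal discs of Drosophila melanogaster that were regenerating after induced cell death, 66 genes stood lower than in undamaged control discs at 0, 15 and 25 h after the induction. They were chosen from FPKM (a fragment count divided by the length of the transcript and by library depth) by a rule of size: above 0 in all 6 groups, at least 1 FPKM in control discs at each time, and a log2 ratio of (FPKM + 1), regenerating over control, of at most -0.4 at every time. The deposited table lists 17158 genes. The conditions on level and name left 7165 of them, and the 66 are 0.921% of these eligible genes. Genes of the mitochondrial genome, roX1 and roX2 and the Hsp, Gst, Cpr, Lcp and Twdl families were left out by name. Because the ratios at all 3 times chose the genes, those ratios are given below as a description and support nothing.

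The study followed the transcriptome of wing discs of late larvae, epithelia that form the adult wing, through regeneration. The groups were regenerating discs at 0, 15 and 25 h and undamaged discs kept under the same conditions at the same times. Each group had 2 libraries of poly(A) RNA, with 40 discs per library. Regeneration and control are named as genotypes in the labels, without the alleles, the driver of cell death or its site, so any difference in genetic background that does not come from the damage is part of every ratio and cannot be told apart from it. The deposited table holds 1 merged value per group, so no value has an error and no difference has a replicate check or a p-value.

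As background, a disc that loses cells to apoptosis closes the gap, turns on JNK signalling, and regrows and re-patterns the missing tissue while pupariation is delayed. The genes lower throughout do not belong to 1 pathway, and their known roles are given one by one. In a bulk sample fewer cells of a type and less RNA per cell cannot be told apart.

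Before the genes are described, some facts of the whole table bear on them. FPKM summed to between 1247527 and 1504200 per group, and 7465 to 9462 genes were listed at 0. The control values at 0 h carry at most 2 decimals, unlike the other columns, so whether they are a mean or 1 library is unclear, and this touches every ratio at 0 h. The median eligible gene itself had log2 ratios of 0.47, 0.36 and 0.07 at 0, 15 and 25 h, so the genes described here lie further below the bulk of genes than their ratios say. All 7 markers of disc epithelium were above 0 in every group, summing to 277, 390.2 and 266 FPKM in regenerating discs and 202, 316 and 371 FPKM in control discs. Markers of fat body, a neighbouring larval tissue, summed to 407, 149 and 720.4 FPKM in regenerating discs and 260.1, 7.66 and 56.6 FPKM in control discs over 9 genes, with Yp1 at 0 throughout and apolpp also at 0 in control discs at 15 and 25 h. Of 10 hemocyte markers 1 to 3 were at 0 per group, and the list summed to between 27.9 and 33.9 FPKM in regenerating discs and between 24.5 and 34.0 FPKM in control discs. Adult muscle precursor markers summed to 58.9, 78.8 and 68.7 FPKM in regenerating discs and 46.3, 61.1 and 50.4 FPKM in control discs, with Hand at 0 throughout. Tracheal markers summed to 91.5, 131.2 and 113.4 FPKM in regenerating discs and 67.9, 106.1 and 110.9 FPKM in control discs. Markers of neurons and glia summed to 15.1, 18.8 and 34.4 FPKM in regenerating discs and 5.08, 14.4 and 12.04 FPKM in control discs, with brp at 0 throughout. Among 5 germline or testis markers 0 or 1 were above 0 in each group, and the largest value was 29.7 FPKM of Mst57Db in regenerating discs at 15 h. None of the 66 genes is in a marker list, and the part of other tissues in the ratios was not tested.

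Over the 66 genes the median level was 19.5, 17.6 and 15.3 FPKM in regenerating discs at 0, 15 and 25 h, against 38.2, 36.6 and 30.1 FPKM in control discs. The median gene thus held 54.3%, 44.5% and 47.2% of its control level. Their median log2 ratio was -0.81, then -1.06, then -0.94 over the 3 times. The threshold of -0.4 alone was met by 2.75% of eligible genes at 0 h, 6.5% at 15 h and 16.3% at 25 h. A log2 ratio of at most -1 was met by 23 of the 66 genes at 0 h, 35 at 15 h and 31 at 25 h, against 0.488%, 0.809% and 2.53% of eligible genes. At all 3 times 15 genes met it, which is 0.209% of eligible genes. The mirror image, a log2 ratio of at least 0.4 at all 3 times, was met by 546 eligible genes, or 7.62%. In 59 of the 66 genes the lowest of the 3 control values exceeded the highest of the 3 regenerating values, as it did in 1.73% of eligible genes. The 7 whose values overlap across times are asRNA:CR45330, CG11360, lncRNA:CR44489, CG34207, Apl, CR42875 and Sec61gamma. Since the rule used these contrasts, nothing is read from these shares.

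**Figure D1:**
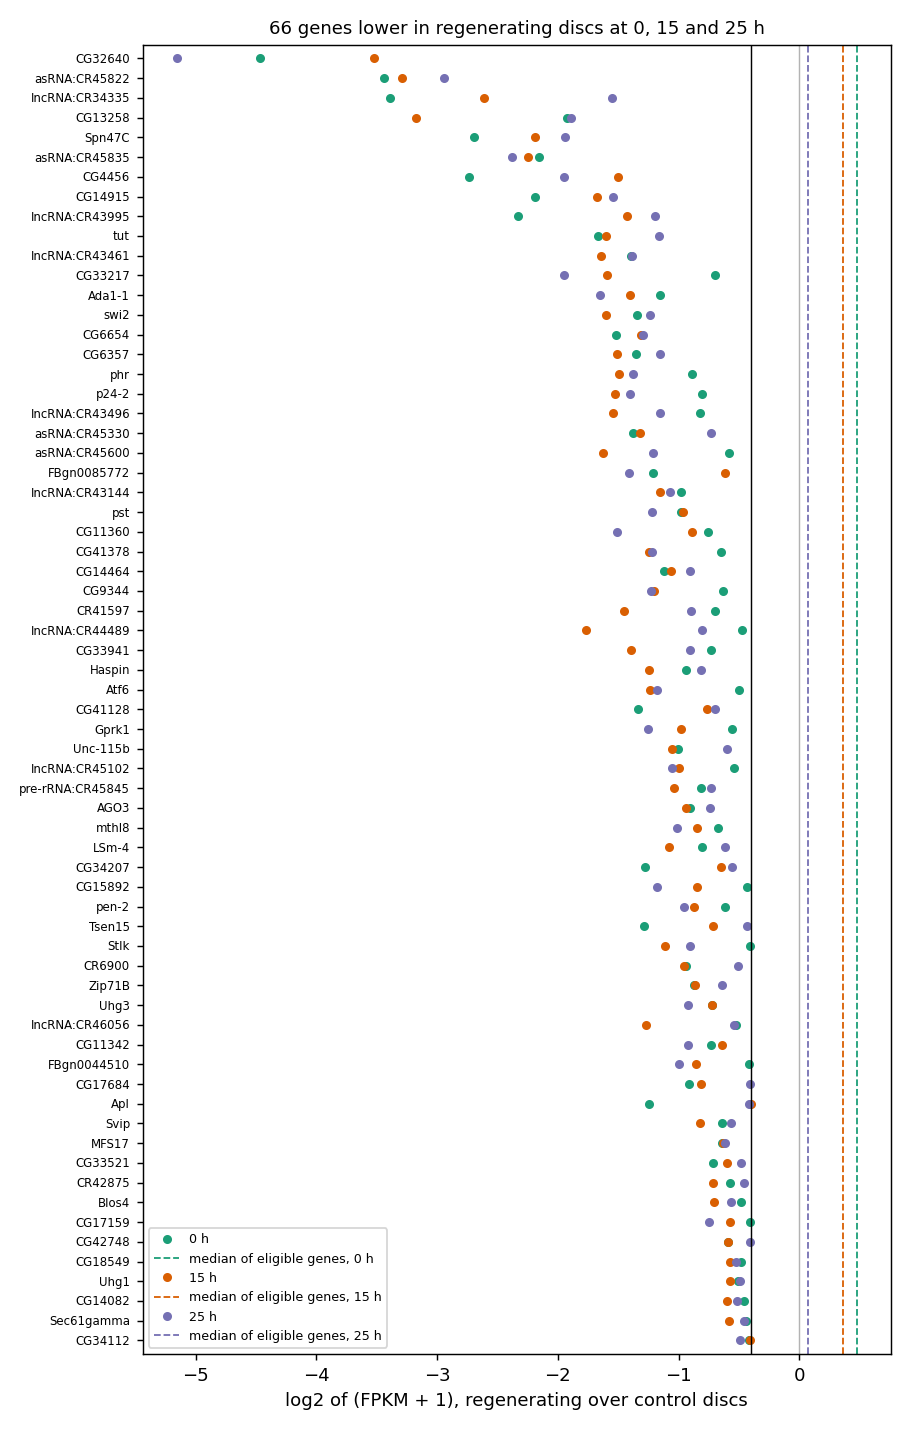
Log2 ratio of (FPKM + 1), regenerating over control discs, of each of the 66 genes at 0, 15 and 25 h (1 point per time, 1 merged value per group), ordered by the mean of the 3 ratios. The black line marks the threshold of -0.4, and the dashed lines mark the median of 7165 eligible genes at 0.47, 0.36 and 0.07. CG32640, asRNA:CR45822 and lncRNA:CR34335 lie furthest to the left.

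The rule used all 3 times, but genes can also be chosen at a pair of times and described at the time left out. Those past the threshold at that time are then always the 66 genes of the set. The shares below therefore describe how far each time limits the set and are not support for it. Of 73 eligible genes at most -0.4 at 0 and 25 h, 66 or 90.4% were also at most -0.4 at 15 h, where 6.5% of all eligible genes were, and their median log2 ratio at 15 h was -0.98 against 0.36 for all. Of 111 genes chosen at 0 and 15 h, 66 or 59.5% were past the threshold at 25 h, with a median of -0.51 against 0.07. Of 301 genes chosen at 15 and 25 h, only 66 or 21.9% were past it at 0 h, where their median was 0.20 against 0.47 for all eligible genes. Most genes that were low at both later times were therefore above -0.4 at 0 h, although 217 of the 301, or 72.1%, lay below the median of all eligible genes at that time. The 0 h ratio, which rests on the control column with fewer decimals, is the condition that most limits the set. The eligibility of a gene used all 6 groups, and no p-value is given because each group is 1 value.

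**Figure D2:**
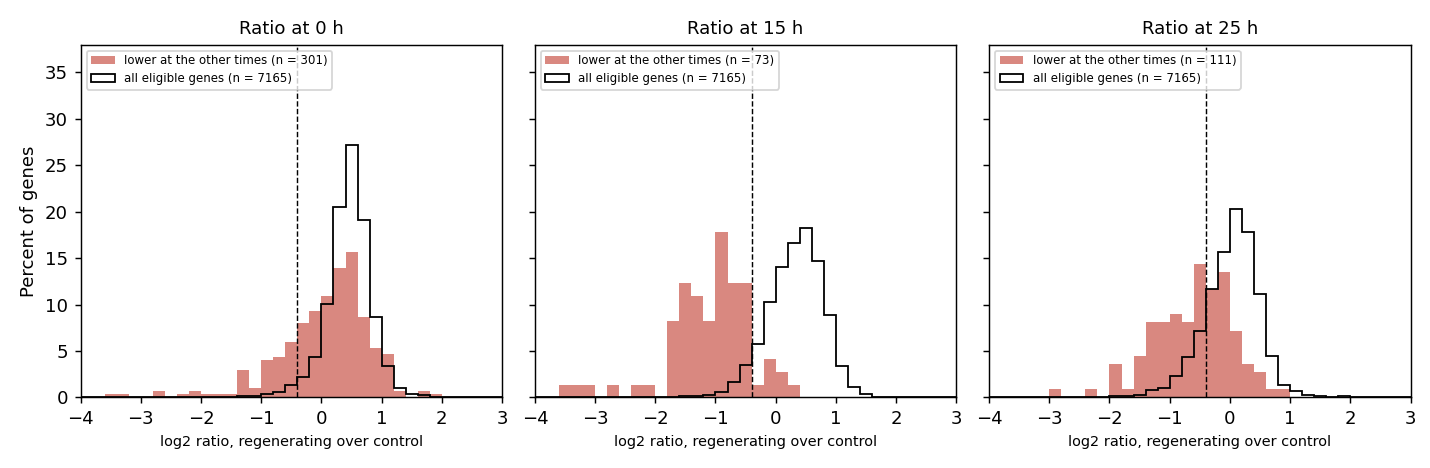
Distribution of the log2 ratio, regenerating over control, at the time not used for choosing (percent of genes in bins of the ratio). Filled bars are genes at most -0.4 at both other times (301, 73 and 111 genes for 0, 15 and 25 h), the outline is all 7165 eligible genes, and the dashed line is -0.4. The filled bars lie mostly left of the line at 15 h, on both sides of it at 25 h and mostly right of it at 0 h.

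The lowest gene at all times was CG32640 (FBgn0052640, dm6 chromosome X, 13178005 to 13178523), a short protein-coding gene. It had 4.36, 16.0 and 3.64 FPKM in regenerating discs, against 117, 194 and 165 FPKM in control discs at 0, 15 and 25 h. Regenerating discs held 3.72%, 8.25% and 2.21% of the control level, with log2 ratios of -4.46, -3.52 and -5.16. The nearest eligible neighbour of CG32640, CG32641 at 5955 bases, ran the other way, with log2 ratios of 2.36, 1.84 and 1.42. CG13258 (chromosome 2L, 16292010 to 16293025) had 3.77, 1.96 and 2.16 FPKM in regenerating discs, against 17.1, 25.7 and 10.7 FPKM in control discs. CG14915 (chromosome 2L, 11071027 to 11071532) had 4.56, 6.94 and 4.20 FPKM in regenerating discs, against 24.3, 24.4 and 14.1 FPKM in control discs. In CG32640, CG13258 and CG14915 the highest regenerating value lay below the lowest control value.

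Spn47C (chromosome 2R, 10938425 to 10941738) belongs to the serpins, inhibitors of serine proteases. It had 1.89, 6.11 and 6.87 FPKM in regenerating discs, against 17.6, 31.5 and 29.2 FPKM in control discs. Its values were higher at 25 h than at 0 h in both conditions, by log2 changes of 1.45 in regenerating and 0.70 in control discs, and the regenerating values stayed below every control value. CG4456 (chromosome 3L, 9372722 to 9374964), which RefSeq lists with the synonym Hsp67Bb and which lies in a cluster of small heat shock genes, had 3.63, 4.93 and 2.93 FPKM in regenerating discs, against 29.8, 15.8 and 14.1 FPKM in control discs. It overlaps Hsp22 on the same strand, and Hsp22 had log2 ratios of -1.47, 0.997 and 0.96, opposite in sign to CG4456 at 15 and 25 h. Because they overlap, the values of CG4456 are uncertain as a separate measurement. The neighbouring Svip (chromosome 3L, 9358999 to 9359996), which encodes a small partner of the VCP segregase of protein quality control, had 14.8, 13.6 and 12.8 FPKM in regenerating discs, against 23.7, 24.9 and 19.4 FPKM in control discs.

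Non-coding RNAs were common in the set. Of the 64 genes found in the annotation 18, or 28.1%, are not protein-coding, against 167 of 7016 eligible genes, or 2.38%. They are 14 non-coding RNA genes, 3 pseudogenes and 1 ribosomal RNA precursor. Eligible genes that are not protein-coding had median log2 ratios of 0.19, -0.15 and -0.05, against 0.48, 0.37 and 0.07 for protein-coding ones, so the class as a whole had the lower medians. Exonic length, an annotation feature the rule did not use, had a median of 1262 bases over the set and 2134.5 bases over eligible genes, and 22 of 64 genes were under 1000 bases (34.4%, against 13.5%). Among protein-coding genes alone the medians were 1923.5 and 2168 bases. FPKM of short genes can rest on few fragments, and depth is unknown here.

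The most abundant non-coding gene of the set was lncRNA:CR34335 (chromosome X, 3545750 to 3546110), a non-coding transcript of 361 bases. It had 1583, 1861 and 4918 FPKM in regenerating discs, against 16637, 11357 and 14384 FPKM in control discs. The gap narrowed with time, and regenerating discs held 9.52% of the control level at 0 h, 16.4% at 15 h and 34.2% at 25 h. lncRNA:CR43995 (chromosome 3L, 22072369 to 22072620) had 14.3, 21.6 and 27.4 FPKM in regenerating discs, against 75.9, 59.8 and 64.0 FPKM in control discs, and its gap also narrowed. By contrast lncRNA:CR43461 (chromosome X, 6732717 to 6735917) kept log2 ratios of -1.39, -1.64 and -1.39, with 8.64, 9.34 and 6.92 FPKM in regenerating discs, against 24.3, 31.3 and 19.7 FPKM in control discs.

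A further trio shares 1 locus. The antisense RNAs asRNA:CR45822 (chromosome 3L, 7355717 to 7356598) and asRNA:CR45835 (chromosome 3L, 7361639 to 7363598) flank pst (chromosome 3L, 7357275 to 7360263), with gaps of 677 and 1376 bases to it. pst, or pastrel, is known for alleles that set resistance to Drosophila C virus. asRNA:CR45822 had 1, 1.43 and 1.32 FPKM in regenerating discs, against 20.7, 22.8 and 16.9 FPKM in control discs, asRNA:CR45835 had 1.37, 1.48 and 1.495 FPKM in regenerating discs, against 9.54, 10.8 and 11.97 FPKM in control discs, and pst had 15.9, 25.8 and 20.8 FPKM in regenerating discs, against 32.3, 51.3 and 49.8 FPKM in control discs. The log2 ratios were -3.44, -3.29 and -2.94 for asRNA:CR45822, -2.15, -2.25 and -2.38 for asRNA:CR45835 and -0.98, -0.97 and -1.22 for pst. Their range over the times was 0.50, 0.23 and 0.25 for these genes. The genes that the antisense RNAs overlap on the opposite strand stood above the threshold at all times. CTCF, the insulator protein gene opposite asRNA:CR45822, had log2 ratios of 0.50, 0.13 and -0.01, and Sec63, opposite asRNA:CR45835, had 0.28, -0.01 and -0.18. No source used here says whether reads were assigned by strand, so overlapping genes are uncertain as separate measurements.

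The remaining non-coding genes had higher mean log2 ratios than the non-coding genes above. lncRNA:CR43496 had 28.0, 11.1 and 13.2 FPKM in regenerating discs, against 50.3, 34.5 and 30.6 FPKM in control discs, and asRNA:CR45330 had 20.7, 8.89 and 9.56 FPKM in regenerating discs, against 55.2, 23.6 and 16.5 FPKM in control discs. asRNA:CR45330 had the largest decrease of the set in control discs, a log2 change of -1.68 from 0 to 25 h. asRNA:CR45600 had log2 ratios of -0.58, -1.62 and -1.21, and it overlaps CG6912 on the same strand, which had -1.15, -0.98 and -0.14. The values of asRNA:CR45600 are therefore uncertain as a separate measurement. lncRNA:CR43144, lncRNA:CR44489, lncRNA:CR45102, lncRNA:CR46056 and the pseudogenes CR41597, CR6900 and CR42875 had mean log2 ratios between -1.07 and -0.58. CR42875 had the largest increase of the set in control discs, a log2 change of 1.09 from 0 to 25 h. The ribosomal RNA precursor pre-rRNA:CR45845 had 28.8, 24.4 and 31.8 FPKM in regenerating discs, against 51.4, 51.1 and 53.4 FPKM in control discs, and because this gene is present in many copies its value is uncertain.

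Uhg1 and Uhg3 are host genes of small nucleolar RNAs. These RNAs are encoded in introns of their hosts and guide the chemical modification of ribosomal RNA. Uhg3 had 57.3, 35.5 and 39.0 FPKM in regenerating discs, against 95.3, 59.3 and 74.9 FPKM in control discs. Uhg1 had 104, 80.8 and 93.6 FPKM in regenerating discs, against 148, 121 and 132 FPKM in control discs. Among 4 other eligible hosts Uhg2 and Uhg4 were also past -0.4 at 0 h, at log2 ratios of -0.48 and -0.58, while Uhg5 and Uhg8 stood above 0 at all 3 times. Uhg1 lies 3744 bases from swi2, another gene of the set, which is on the opposite strand and had 0.725, 0.395 and 0.64 FPKM in regenerating discs, against 3.39, 3.23 and 2.86 FPKM in control discs.

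phr (chromosome 2R, 7825289 to 7827319) encodes the photolyase that uses light to reverse cyclobutane pyrimidine dimers. It had 47.2, 43.9 and 41.1 FPKM in regenerating discs, against 88.1, 125 and 108 FPKM in control discs, with log2 ratios of -0.89, -1.49 and -1.38. Of 15 eligible genes of a list of DNA repair genes it was the 1 gene in the set, and the other photolyase gene phr6-4 had 5.31, 9.74 and 8.10 FPKM in regenerating discs, against 4.12, 5.17 and 7.95 FPKM in control discs. phr overlaps Prosalpha1 on the opposite strand, a proteasome subunit gene with log2 ratios of -0.21, -0.43 and -1.94, and no source used here says whether reads were assigned by strand.

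Ada1-1 (chromosome 2L, 11996809 to 11997965) encodes a subunit of the SAGA histone acetyltransferase coactivator. It had 12.6, 11.4 and 8.79 FPKM in regenerating discs, against 29.3, 31.8 and 29.7 FPKM in control discs, and its log2 ratio was -1.16, -1.40 and -1.65. The related gene Ada1-2 had 81.4, 67.0 and 58.1 FPKM in regenerating discs, against 47.1, 72.4 and 56.4 FPKM in control discs. Of 15 other eligible SAGA genes 0 were past the threshold at 0 and 15 h, and 1, Nipped-A, was at 25 h. Haspin (chromosome 2R, 4014111 to 4049342), the kinase that phosphorylates histone H3 to place the chromosomal passenger complex, had 96.0, 83.7 and 78.2 FPKM in regenerating discs, against 185, 199 and 138 FPKM in control discs.

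AGO3 (chromosome 3L, 23554593 to 23689640) encodes an Argonaute protein of the piRNA pathway, which silences transposons chiefly in the germline. It was at low levels throughout, 0.93, 0.42 and 0.605 FPKM in regenerating discs, against 2.61, 1.72 and 1.68 FPKM in control discs. The other germline Argonaute genes piwi and aub did not reach 1 FPKM in control discs, and aub had 1.12 FPKM in regenerating discs at 0 h. Of 14 eligible genes of a heterochromatin and piRNA list, AGO3 was the 1 gene in the set. tut (chromosome 3L, 8209577 to 8210743), named for tumorous testis, encodes an RNA-binding partner of Bam and Bgcn in the male germline. It had 7.17, 4.68 and 3.65 FPKM in regenerating discs, against 24.9, 16.2 and 9.41 FPKM in control discs, lower at each later time in both conditions. Its partners bam and bgcn were under 1 FPKM in every group, at most 0.57 FPKM in regenerating and 0.39 FPKM in control discs.

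p24-2 (chromosome 3R, 9687402 to 9692794), a member of the p24 family of cargo receptors between endoplasmic reticulum and Golgi, had 26.8, 30.6 and 26.2 FPKM in regenerating discs, against 47.6, 90.2 and 71.1 FPKM in control discs. It overlaps Unc-115b on the same strand, which encodes an actin-binding protein and had 52.1, 44.9 and 65.0 FPKM in regenerating discs, against 105, 94.4 and 99.1 FPKM in control discs. Because they overlap, their values are uncertain as separate measurements. Among 5 other eligible p24 genes, loj was past the threshold at 15 and 25 h with log2 ratios of 0.29, -0.55 and -0.63, and the rest at no time.

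Atf6 (chromosome 2R, 5144733 to 5154756), a membrane-bound transcription factor of the unfolded protein response, had 32.3, 43.2 and 27.1 FPKM in regenerating discs, against 46.0, 103 and 62.5 FPKM in control discs. Of 5 other eligible genes of that response only crc, which encodes fly ATF4, was past the threshold, at 25 h, with log2 ratios of 0.71, -0.34 and -0.75. Sec61gamma, a subunit of the channel through which proteins enter the endoplasmic reticulum, had 736, 369 and 362 FPKM in regenerating discs, against 1001, 551 and 498 FPKM in control discs. The other channel subunits Sec61alpha and Sec61beta had log2 ratios of 0.54, 0.60 and -0.12 and, for Sec61beta, of 0.82, 0.55 and 0.00029. From 0 to 25 h Sec61gamma changed by -1.02 on the log2 scale in regenerating and by -1.01 in control discs.

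pen-2 (chromosome 2R, 18277439 to 18278762) encodes a subunit of gamma-secretase, the protease that cleaves Notch to release its signalling fragment. It had 98.9, 78.9 and 66.7 FPKM in regenerating discs, against 152, 146 and 131 FPKM in control discs, log2 ratios of -0.62, -0.87 and -0.96. aph-1, another subunit, had 65.1, 81.2 and 60.1 FPKM in regenerating discs, against 28.4, 52.8 and 67.2 FPKM in control discs and so stood higher at 0 and 15 h and slightly below control at 25 h. Of 12 eligible Notch pathway genes 1, 2 and 8 were at most -0.4 at 0, 15 and 25 h, where 2.75%, 6.5% and 16.3% of all eligible genes were. Their medians were 0.31, 0.06 and -0.58, and pen-2 was the 1 gene low at all times. Blos4, a subunit of the BLOC-1 complex of lysosome-related organelles, had 48.7, 34.9 and 34.8 FPKM in regenerating discs, against 68.5, 57.5 and 51.8 FPKM in control discs, and of 7 other eligible subunits 0, 2 and 2 were past the threshold.

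RNA processing was represented by LSm-4, of the ring of Sm-like proteins that binds U6 RNA and decaying messages, and by Tsen15, a subunit of the endonuclease that removes introns from tRNA. LSm-4 had 30.9, 25.3 and 31.0 FPKM in regenerating discs, against 54.6, 54.5 and 47.9 FPKM in control discs, and LSm1, LSm3 and LSm7 had log2 ratios of 0.23, 0.04 and -0.05, -0.42, -0.17 and 0.34 and -0.19, -0.26 and 0.21. LSm-4 overlaps CG17768 on the same strand, which had 460, 433 and 508 FPKM in regenerating discs and log2 ratios of -0.21, -0.02 and 0.40. The values of LSm-4 are therefore uncertain as a separate measurement. Tsen15 had 12.7, 12.6 and 16.7 FPKM in regenerating discs, against 32.4, 21.3 and 22.9 FPKM in control discs. Its ratio lay lowest at 0 h and approached the threshold at 25 h, whereas the subunit genes Tsen34 and Tsen54 ran the other way, with log2 ratios of 0.99 and 0.98 at 0 h and -0.67 and -1.31 at 25 h.

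Over all 13 complexes and families, picked because 1 or 2 of their genes are in the set, 54 other eligible genes were compared, none of them in the group of bam and bgcn. Of these 3 were at most -0.4 at 0 h, 4 at 15 h and 10 at 25 h. These are 5.56%, 7.41% and 18.5%, beside 2.75%, 6.5% and 16.3% of all eligible genes. Their median log2 ratios were 0.46, 0.24 and 0.02, beside 0.47, 0.36 and 0.07 for all eligible genes. Of 28 lists of signalling, patterning, chromatin and metabolic genes, 25 held none of the 66 genes. The 358 eligible genes of these lists included 3, pen-2, AGO3 and phr, or 0.838%, beside 0.921% of all eligible genes, so the lists held the genes at about the share of the whole table.

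**Figure D3:**
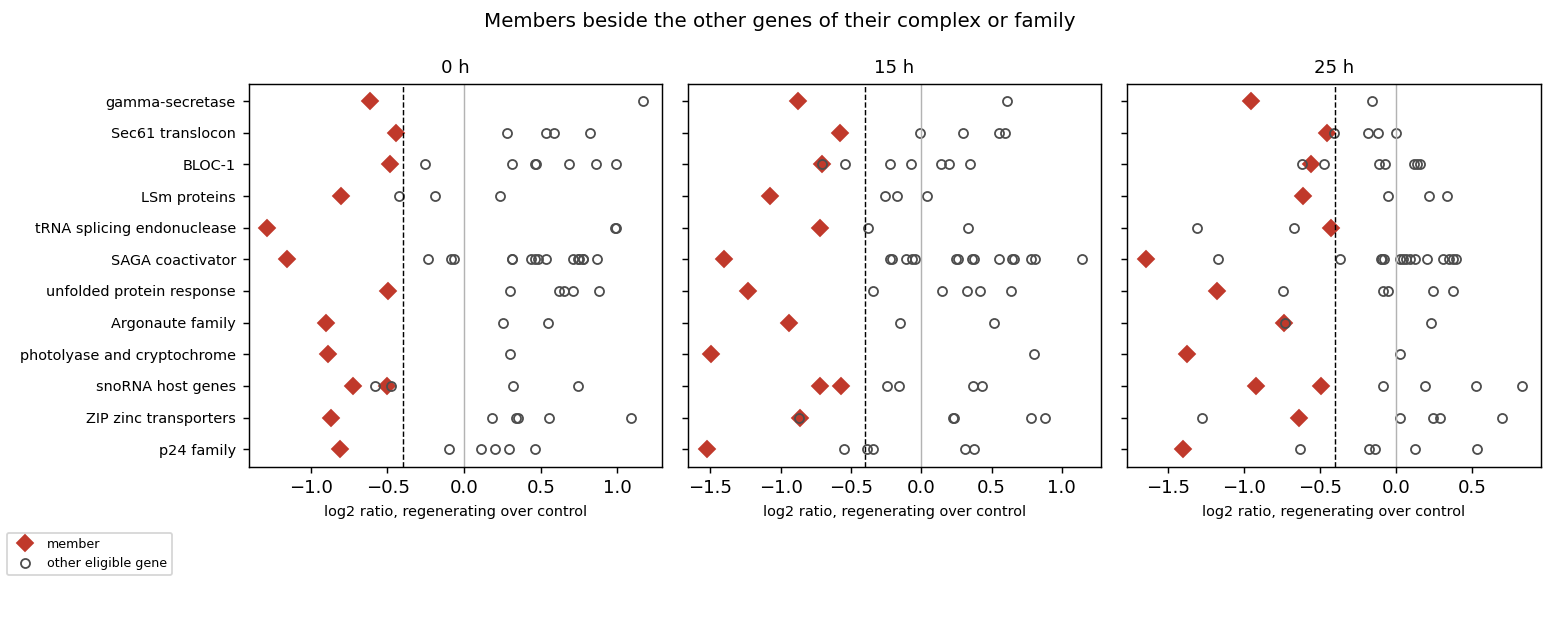
Log2 ratio, regenerating over control discs, of genes of the set (diamonds) and of the other eligible genes of the same complex or family (circles) at 0, 15 and 25 h. The dashed line is the threshold of -0.4. Most circles lie to the right of the diamonds, and 3, 4 and 10 of 54 circles lie at or left of the line at 0, 15 and 25 h.

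Other named genes of the set encode kinases, a receptor and transporters. Gprk1 (chromosome 2R, 4322295 to 4471060), a kinase that phosphorylates G protein-coupled receptors, had 67.9, 80.6 and 55.4 FPKM in regenerating discs, against 101, 160.0 and 133 FPKM in control discs. Stlk, a Ste20-like kinase gene, had 74.7, 53.2 and 46.0 FPKM in regenerating discs, against 99.4, 116 and 87.0 FPKM in control discs. mthl8, of the Methuselah-like receptor family, had 9.84, 10.1 and 9.19 FPKM in regenerating discs, against 16.3, 18.9 and 19.5 FPKM in control discs. Zip71B, a zinc transporter gene, was near the lower limit of level at 0.835, 0.36 and 0.43 FPKM in regenerating discs, against 2.35, 1.47 and 1.23 FPKM in control discs, and MFS17, of the major facilitator superfamily of transporters, kept a nearly constant log2 ratio of -0.64, -0.63 and -0.62 at 53.9, 39.3 and 36.1 FPKM in regenerating discs, against 84.7, 61.4 and 55.8 FPKM in control discs. Of 5 other eligible ZIP genes Zip102B was past the threshold at 15 and 25 h, at log2 ratios of 0.18, -0.87 and -1.28. CG41128, whose RefSeq synonym Minos1b refers to a complex of the mitochondrial inner membrane, had 838, 508 and 604 FPKM in regenerating discs, against 2122, 866 and 983 FPKM in control discs.

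No role is given here to the other genes, which apart from Apl have only systematic names or an identifier that was matched to no symbol. CG33217 (chromosome 3L, 23126025 to 23132209) had 28.6, 26.7 and 17.0 FPKM in regenerating discs, against 47.0, 82.7 and 68.3 FPKM in control discs, and its log2 ratios of -0.70, -1.60 and -1.95 lay lower at each later time. CG6654 and CG6357 kept ratios of -1.52, -1.31 and -1.29 and -1.35, -1.51 and -1.15. Among well expressed genes CG14464 had 364, 249 and 289 FPKM in regenerating discs, against 794, 521 and 544 FPKM in control discs, CG9344 had 178, 152 and 147 FPKM in regenerating discs, against 276, 352 and 346 FPKM in control discs, and CG41378 had 135, 93.6 and 80.0 FPKM in regenerating discs, against 212, 223 and 188 FPKM in control discs. The unmatched identifiers FBgn0085772 and FBgn0044510 had log2 ratios of -1.21, -0.62 and -1.41 and -0.41, -0.85 and -0.999. CG11360, CG33941, CG34207, CG15892, CG11342, CG17684, Apl, CG33521, CG17159, CG42748, CG18549, CG14082 and CG34112 had mean log2 ratios between -1.05 and -0.44. Of these CG15892, CG33521, CG17159 and CG14082 averaged under 5 FPKM in control discs, as AGO3, Zip71B and swi2 did.

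**Figure D4:**
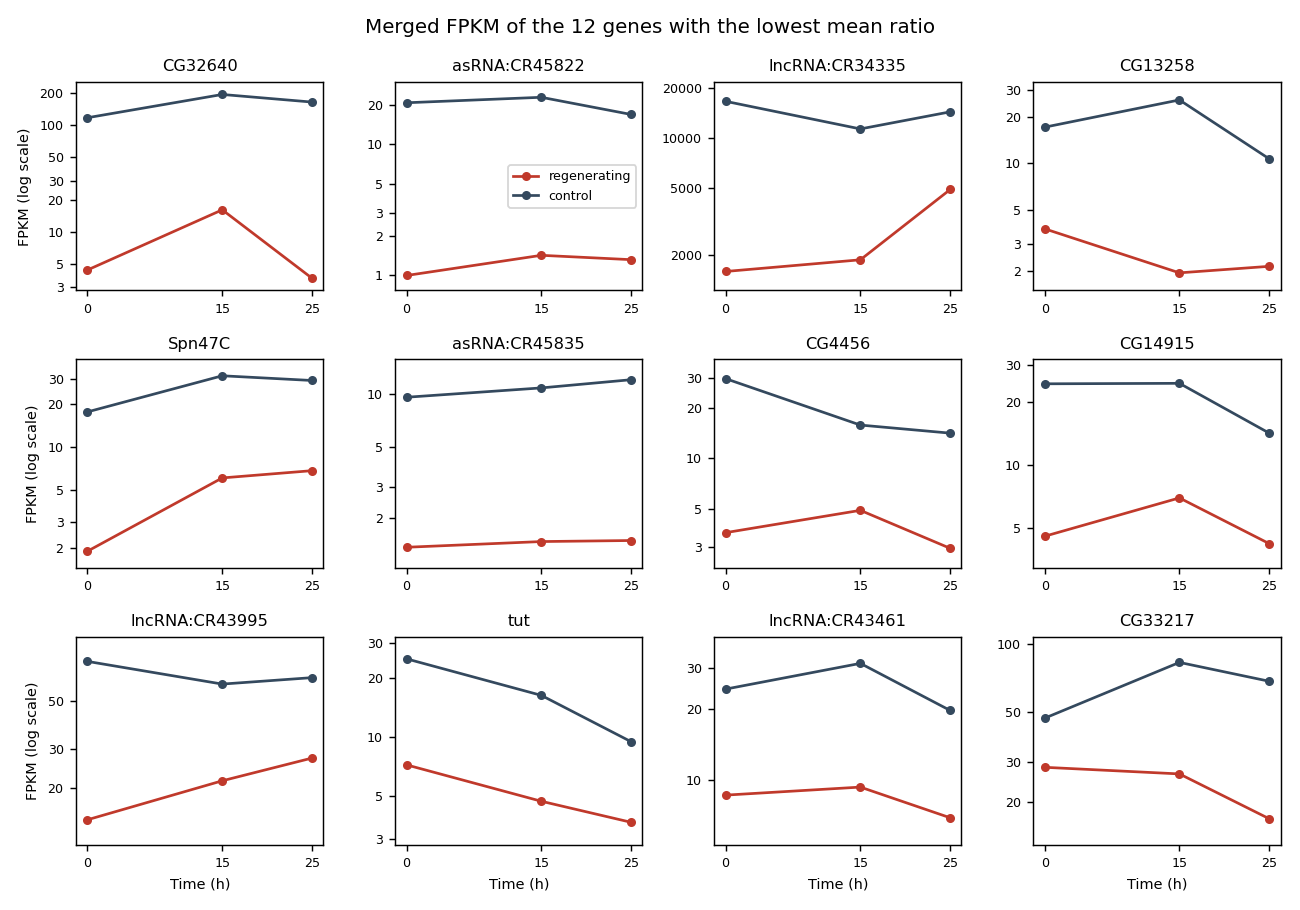
Merged FPKM at 0, 15 and 25 h (log scale, 1 value per group with no error) of the 12 genes with the lowest mean log2 ratio, in regenerating discs (red) and control discs (blue). The lines do not cross in any panel. lncRNA:CR34335 and lncRNA:CR43995 approach the control level with time, and CG33217 moves away from it.

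The range of the log2 ratio over the 3 times was under 0.3 in 21 genes of the set and at least 1 in 8, with a median of 0.50. The lowest ratio fell at 0 h in 19 genes, at 15 h in 29 and at 25 h in 18. These counts were not taken over all eligible genes, and the rule used the same ratios, so nothing is read from them. Within control discs the median gene of the set changed by -0.19 on the log2 scale from 0 to 25 h, where the median eligible gene changed by 0.52. Within regenerating discs these medians were -0.20 and 0.08. A log2 decrease of at least 1 from 0 to 25 h was seen in 4 genes of the set in regenerating discs and 5 in control discs, where 2.25% and 0.349% of eligible genes had one. Those in regenerating discs were lncRNA:CR44489, asRNA:CR45330, lncRNA:CR43496 and Sec61gamma. Those in control discs were asRNA:CR45330, tut, CG41128, CG4456 and Sec61gamma. An increase of at least 1 was seen in 4 genes of the set in regenerating discs (lncRNA:CR34335, Spn47C, CR42875 and Apl), where 1.44% of eligible genes had one, and in 1, CR42875, in control discs, where 6.48% had one. These changes use the same columns as the rule and are a description.

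The genes were unevenly placed along the chromosomes, a feature the rule did not use, although the division below was chosen after the positions were seen. The regions next to the centromeres and the small chromosome 4 are rich in heterochromatin, compact chromatin in which some genes are nonetheless active. Of 64 placed genes 21, or 32.8%, lay within 5 Mb of the proximal (centromere) end of the annotated arm or on chromosome 4, where 570 of 7016 eligible genes, or 8.12%, lay. The share of eligible genes that belonged to the set was 3.68% there and 0.667% elsewhere. By arm, 7 of 30 eligible genes of the proximal 5 Mb were in the set on 2R, 3 of 25 on 3L, 3 of 221 on 2L, 2 of 62 on 3R and 3 of 171 on X, and 3 of 61 on chromosome 4. The 7 on 2R are CG17684, MFS17, CG41378, Haspin, Gprk1, Stlk and CG14464, with Atf6 just beyond. AGO3, CR41597 and CG33217 lie on 3L, and CG11360, CG33941 and CG33521 on chromosome 4.

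In 3 of these regions, singled out after their values were seen, the ratios of eligible genes in general were low at the later times. On proximal 2R the median log2 ratio was 0.20, -0.58 and -0.77 at 0, 15 and 25 h over 30 genes, on proximal 3L 0.15, -0.54 and -0.50 over 25 genes, and on chromosome 4 0.24, -0.08 and -0.62 over 61 genes. Without genes of the set these medians were 0.51, -0.43 and -0.74 on 2R over 23 genes, 0.21, -0.45 and -0.36 on 3L over 22 genes, and 0.26, -0.04 and -0.62 on chromosome 4 over 58 genes. The 6900 other placed genes had medians of 0.48, 0.37 and 0.08. At 25 h 76.7%, 56.0% and 62.3% of genes of the 3 regions were at most -0.4, against 15.5% of the others. The proximal parts of 2L, 3R and X had medians at 25 h of -0.02, -0.04 and 0.15. Genes of the 3 regions are also longer in the genome, with median spans of 6.74, 6.19 and 8.44 kb against 2.79 kb, and the part of length in the shift was not tested. Of the 15 genes at most -1 at all times 0 were in the proximal 5 Mb or on chromosome 4.

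**Figure D5:**
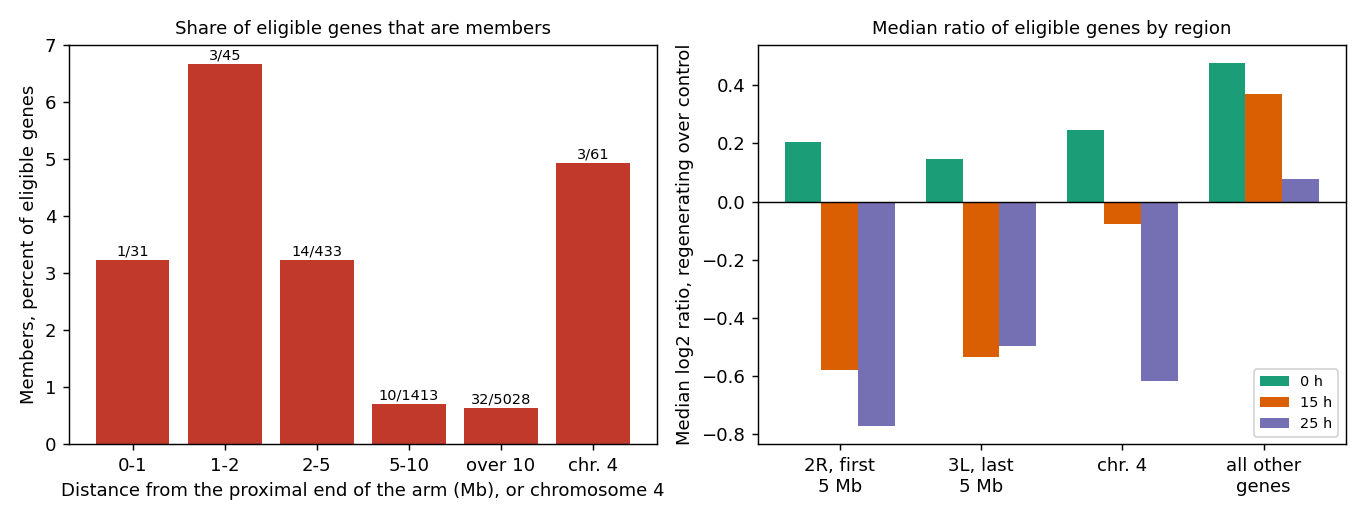
Left, genes of the set as a percentage of eligible genes by distance from the proximal end of the chromosome arm (Mb) and on chromosome 4, with the counts above each bar. Right, median log2 ratio, regenerating over control discs, of all eligible genes at 0, 15 and 25 h in the proximal 5 Mb of 2R and of 3L, on chromosome 4 and elsewhere. The first 3 regions are below 0 at 15 and 25 h and the other genes above 0.

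The nearest eligible neighbour of a gene of the set had a median mean log2 ratio of 0.21, against 0.31 for the neighbours of all eligible genes, and it belonged to the set in 3 of 64 cases, or 4.69%, against 58 of 7016 cases, or 0.827%, for all eligible genes. The 3 cases are p24-2, which overlaps Unc-115b, and CG41378 and MFS17, each the nearest gene of the other at 204995 bases. Overlap with another eligible gene was about as common in the set, at 24 of 64 or 37.5%, as in all eligible genes at 35.8%. Pairs within 20 kb were limited to the pst locus, CG4456 with Svip, swi2 with Uhg1, and p24-2 with Unc-115b. Examples of a low gene opposite a gene that was not low were CG6654, which overlaps Mau2 with log2 ratios of 0.23, 1.16 and 0.14, and CR6900, which overlaps CG6961 with 1.005, 0.48 and -0.19. By contrast CG33521 lies opposite PIP4K, which was low at 15 and 25 h, with log2 ratios of -0.11, -0.81 and -0.88. Whether reads were assigned by strand is not known.

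At the edge of the rule, the genes just inside were Apl, CG34112, CG42748, Stlk and CG17684, whose highest log2 ratio lay between -0.41 and -0.40. Just outside were CG40439, Adi1, lncRNA:CR44845, CG34193 and norpA, with highest ratios of -0.39, -0.39, -0.38, -0.37 and -0.35. norpA, the phospholipase C of phototransduction, had 4.06, 2.61 and 2.54 FPKM in regenerating discs, against 5.45, 7.25 and 6.85 FPKM in control discs, and it missed the threshold only at 0 h.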

How the data were processed

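Poly(A) RNA of wing discs was sequenced from 12 libraries in 6 groups, with Illumina TruSeq libraries per the labels' protocols. STAR 2.4.0j, RSEM and dm6 appear, without roles, in the submitters' processing notes. The deposited values are FPKM, which the authors merged over replicates into 1 column per group, per the file name, in a way no source used here states. Depth is unknown, and 1 column of no sample was not used. In 5 columns, whole numbers of at least 1000 ending in 5 had lost their decimal point, and 19566 such values were divided by 1000, a reading made from the values. All but 5 of the genes described have such a value.

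Symbols were paired with 16912 identifiers. Positions come from Ensembl release 115 (BDGP6.54, the dm6 assembly). Ratios used a pseudocount of 1. The genes, lists and complexes were chosen with earlier results of these data known. Genes named one by one followed a rule on rank, level and list membership, and all others of the set were added to account for each. No test was possible with 1 value per group. Promoter motifs and sequences are not analysed here, and 1 gene of the complexes is not reported here. Calculations were tested on simulated data with Python 3.11.15, pandas 2.3.3 and NumPy 2.4.6. Alternatives were other pseudocounts, scalings, minimums, thresholds and times.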

Additional observations from a re-analysis of the deposited data

Results flagged for a closer look

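CG33217 changed in opposite directions with time in the 2 conditions, by -0.72 in regenerating discs and 0.53 in control discs on the log2 scale from 0 to 25 h, a difference of -1.25. The difference was not tested, since each group is 1 merged value. It was the only one of the 66 genes whose change was at least 0.4 in size in both conditions and opposite in sign.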

How the results depend on the processing

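The set held 66 genes as described. It held 72 and 49 with pseudocounts of 0.1 and 5, 55 with a minimum of 5 FPKM and 66 with none, 52 with columns scaled to the same sum, 46 among protein-coding genes and 74 where regenerating values may be 0. Median-of-ratios scaling gave 183 genes and a threshold set below the median ratio, chosen after seeing the data, 194, and both kept all 66. Thresholds of -0.2, -0.6 and -1 gave 124, 41 and 15 genes. Leaving out 0 h gave 301, 15 h 73 and 25 h 111. Only 224 eligible genes had no restored decimal point, and 5 of them were in the set. The other 61 genes of the set hold a restored value and so rest on the reading of lost decimal points. The count of 5 does not measure the effect of that reading.

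Under median-of-ratios scaling the share also low at the unused time was 28.2% at 0 h and 37.0% at 25 h, and with the threshold below the median 27.6% and 42.2%. It was 71.2% at 25 h with columns scaled to the same sum, 30.4% and 69.5% at 0 and 25 h at -0.6, and 41.7% and 71.4% at -1. With no restored values it was 45.5% of only 11 genes at 0 h and 100% of only 5 genes at 15 h and at 25 h. The share in proximal regions or on chromosome 4 was 21.1% after median-of-ratios scaling, 19.9% below the median, 20% of only 5 genes with no restored values, and 0% at -1. For distances of 2 or 10 Mb it was 10.9% or 48.4%, where 1.95% or 28.3% of eligible genes lay. These distances were chosen after seeing the data, as was the allowance for 0. Of 108 log2 ratios of 36 named genes 13 crossed the threshold with a pseudocount of 5 and 7 with columns scaled to the same sum, and none changed sign.

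No paired analysis was possible because the replicates were merged into 1 column per group, and no replicate was left out for the same reason. Promoter motifs were not run. Depth is unknown, so the precision of low genes such as AGO3 and Zip71B cannot be given.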

Other observations

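Genes kept out of the set by its conditions also stood low. With regenerating values at 0 allowed, 8 more genes had log2 ratios of at most -0.4 at all times. They include the neighbouring cytochrome P450 genes Cyp4p2 and Cyp4p1. Cyp4p2 had 13.4, 1.98 and 0 FPKM in regenerating discs, against 54.3, 70.5 and 35.4 FPKM in control discs, and Cyp4p1 had 2.34, 0 and 0 FPKM in regenerating discs, against 11.9, 5.85 and 3.35 FPKM in control discs. The listing at 0 is not read as absence. Of 60 otherwise eligible genes left out by name 14 were past the threshold at all times, and 10 of these are genes of the mitochondrial genome, which encodes core subunits of the respiratory chain and ribosomal RNA. mt:ND3 had 961, 821 and 1073 FPKM in regenerating discs, against 7989, 5778 and 4753 FPKM in control discs, and mt:CoI had 3723, 2520.0 and 2439 FPKM in regenerating discs, against 12183, 13179.9 and 9152 FPKM in control discs. The others were lncRNA:roX2, the RNA of the dosage compensation complex, with 111, 14.1 and 12.4 FPKM in regenerating discs, against 282, 44.7 and 39.1 FPKM in control discs, Hsp67Bc with 1.90, 2.44 and 3.18 FPKM in regenerating discs, against 6.21, 8.92 and 8.20 FPKM in control discs, Cpr66D and Cpr67Fa2. Hsp67Bc belongs to the same cluster of heat shock genes as CG4456.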
